A study of Mus musculus with 15 samples.

Results

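The 40 genes described here encode proteins of the postsynaptic side of the synapse, and were taken as a named list from the 21889 genes counted. They comprise the MAGUK scaffolds Dlg1 to Dlg4, the SAPAP scaffolds Dlgap1 to Dlgap4, the scaffolds Shank1 to Shank3 and Homer1 to Homer3, and the inhibitory scaffold gephyrin (Gphn). They further comprise the calcium/calmodulin-dependent kinases Camk2a, Camk2b, Camk2d, Camk2g and Camk4, and 20 adhesion molecules of the neuroligin, Lrrtm, Lrfn, Lrrc4 and Slitrk families. All 40 were found by symbol and all 40 passed the filter on low counts, so no member was left out. The list is one of named genes with no threshold on their values, and was proposed with earlier results of these data known.

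RNA had been sequenced from mouse cerebellum in 5 groups of 3 libraries each. Granule neuron precursors (GNPs), which proliferate in the external granular layer before they become granule neurons, were taken before birth (E15.5, an embryonic day) and at postnatal days 1, 7 and 14 (P1, P7, P14). The E15.5 cells carried a Math1-GFP reporter, a fluorescent protein driven from the Math1 (Atoh1) promoter of granule precursors, whereas the P1, P7 and P14 cells were wild type. The 5th group was medulloblastoma (MB), a cerebellar tumour, from mice heterozygous for Ptch1, the receptor that restrains Sonic hedgehog signalling. No age was given for the tumours. All cells were enriched on Percoll density gradients rather than by a stated cell sort, and poly(A) RNA was sequenced. Age and reporter genotype changed together between E15.5 and P1 and cannot be told apart, and tumour state, Ptch1 genotype and age cannot be told apart in the tumour comparisons. Nothing in the labels says whether the 3 libraries of a group came from separate animals or litters, so the p-values measure the spread between these libraries.

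At an excitatory synapse, MAGUK proteins bind glutamate receptors and adhesion molecules at the membrane. SAPAP proteins link them to Shank, and Shank and Homer connect this layer to metabotropic receptors, calcium stores and actin. CaMKII is the abundant kinase of this density and is needed for synaptic strengthening. Gephyrin anchors glycine and GABA-A receptors at inhibitory synapses. Neuroligins and LRRTM proteins bind presynaptic neurexins, whereas Slitrk, Lrfn (SALM) and Lrrc4 (netrin-G ligand) proteins bind chiefly receptor tyrosine phosphatases or netrin-G proteins. Granule neurons acquire these synapses, from mossy fibres and Golgi cells, only after they leave the cell cycle and migrate into the internal granular layer.

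Levels are given as CPM, the counts per 1000000 counts of a library whose size is scaled by TMM. Differences are log2 fold changes with their standard error (SE) and a Benjamini-Hochberg adjusted p from edgeR's quasi-likelihood test over all 15259 genes tested. A gene is called higher or lower where the adjusted p is below 0.05. Libraries held 12597472 to 43443132 counts in genes. Several libraries stood apart from their group. P1 replicate 3 held markers of later cells: Cbln3, a marker of maturing granule neurons, was at 159 CPM there against 5.45 and 21.6 in the other P1 libraries, and a sum of 11 oligodendrocyte-lineage markers was at 2220 CPM against 606 and 802. At P14 Cbln3 was at 261, 260 and 243 CPM, and Atoh1 was at 11.7, 10.9 and 13.1 CPM. The P14 libraries are called precursors here by their sample titles. Deviation from the group's mean followed the GC content of genes in MB replicate 1 (r = -0.46 across 14494 genes) and P7 replicate 2 (r = -0.48), with the opposite sign in MB replicates 2 and 3 (0.39 and 0.36) and P7 replicate 3 (0.34). Values without P1 replicate 3 or MB replicate 1 are given beside some of the results, not all. Both libraries were singled out after their values were seen, although each library was also left out in turn. MB replicate 1 lay furthest from the other tumours for Lrrtm1 (log2 difference -3.11). Lrrtm1, Shank1 and Lrfn1, each lowest in MB replicate 1, kept their lower calls against P7 and P14 without it.

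Per kilobase of exon, the most abundant members differed between groups. At E15.5 they were Dlg4, which encodes PSD-95, at 76.6 ± 1.99 CPM per kb (SD, n = 3), then Lrrc4b at 62.7 ± 7.35 and Dlgap4 at 59.0 ± 4.17. At P14 the leading members were Camk2d at 59.5 ± 1.81, Lrrc4b at 58.9 ± 2.80, Camk2b at 58.0 ± 5.98 and Nlgn2 at 56.9 ± 8.23 CPM per kb, which did not differ beyond their spread. In the tumours Dlgap3 (85.0 ± 46.4) and Lrfn4 (60.0 ± 41.5) ranked highest, both with a wide spread between tumours. Camk2a, Slitrk4 and Dlgap2 were the lowest members in the tumours, between 0.0344 and 0.11 CPM per kb. Dlgap2 was the lowest member at E15.5, P7 and P14.

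**Figure D1:**
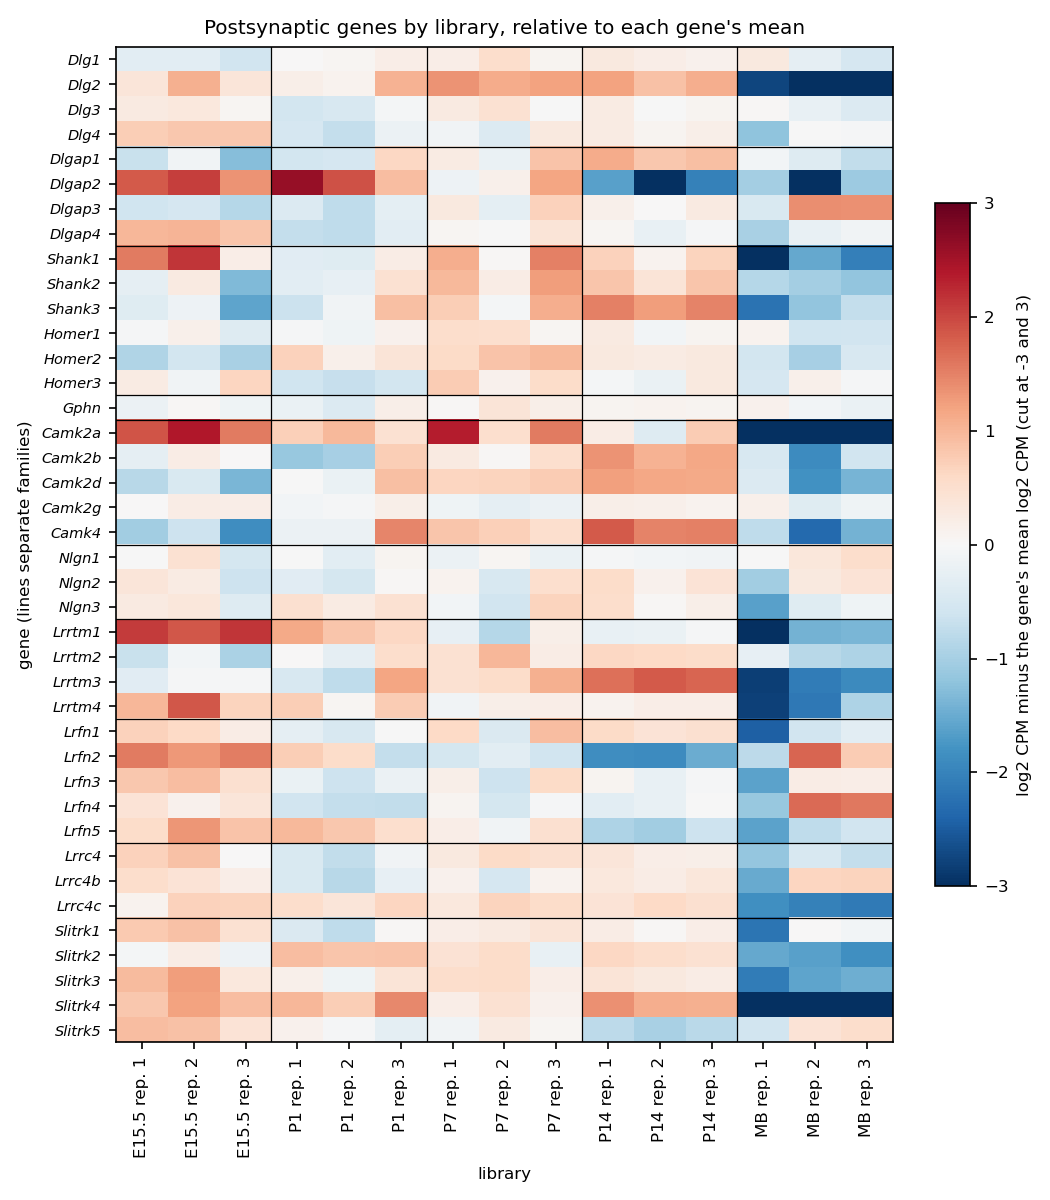
Log2 CPM of the 40 genes (rows, grouped by family) in the 15 libraries (columns), each minus the gene's own mean over the libraries, with the colour scale cut at -3 and 3. The 3 MB columns are blue for most rows, Dlg2, Camk2a and Slitrk4 most deeply, while Dlgap3, Lrfn2 and Lrfn4 are red in MB replicates 2 and 3 but not in MB replicate 1.

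The comparison of tumours with P7 precursors sets medulloblastoma beside the age at which the study also compared chromatin. In it, 21 of the 40 genes were lower and 2 were higher, where 20.7% of all genes tested were called lower and 13.7% higher. The median log2 fold change of the 40 was -1.13, against 0.02 for all genes. Against P14, 20 were lower and 3 higher, with 27.2% and 22.9% of all genes called in those directions and a median of -0.88 against 0.01. Lower than at P7 were 10 of the 20 scaffold and kinase genes and 11 of the 20 adhesion genes, from 5 of the 6 Shank and Homer genes and all 4 LRRTM genes to 1 of the 4 MAGUK genes and 0 of the 3 neuroligins. Differences between families were not tested. In all, 18 of the 40 genes were lower than at both ages, where 18.8% of all genes tested were. Both comparisons use the same 3 tumour libraries, so their calls are not independent. In bulk RNA, fewer cells of a type and less RNA per cell cannot be told apart.

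Among the MAGUK scaffolds, Dlg2, which encodes PSD-93, was nearly lost from the tumours while its paralogs were not. Dlg2 (mm9 chr7:98239238-99595513, plus strand) was at 7.10, 2.64 and 5.96 CPM in the 3 tumours. It was at 121, 103 and 111 CPM at P7 and at 111, 87.5 and 102 CPM at P14, and the lowest of all 12 precursor libraries held 51.8 CPM. The tumours thus lay below every precursor library. The level was 21.5-fold lower than at P7 (log2 -4.42, SE 0.37, adjusted p = 4.2e-07 by edgeR) and 19.3-fold lower than at P14. Dlg1, Dlg3 and Dlg4 were not called in either comparison, with log2 values from -0.49 to -0.28. Dlg4 was at 66.3 CPM in MB replicate 1 and at 154 and 150 CPM in the other tumours, against 117 to 189 CPM at P7.

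The 3 Shank genes were all lower, and Shank1 was the lowest relative to P7. Shank1 was at 3.41, 18.4 and 12.9 CPM in the tumours and at 114, 54.3 and 152 CPM at P7. The groups did not overlap, and the fold was 9.16 (log2 -3.19, SE 0.57, adjusted p = 0.000442 by edgeR). Shank2 held 31.3, 28.0 and 25.3 CPM in the tumours against 112, 66.6 and 137 CPM at P7, a 3.74-fold lower mean. Shank3 held 14.7, 30.0 and 41.8 CPM against 114, 65.5 and 144 CPM, also 3.74-fold lower, and 6.36-fold lower than at P14 (195, 163 and 192 CPM). P7 replicate 2 was the lowest P7 library for all 3 Shank genes.

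Homer proteins cross-link Shank with metabotropic glutamate receptors. Homer2 was the Homer gene lower against both ages, at 72.6, 52.9 and 75.9 CPM in the tumours against 158, 191 and 208 CPM at P7 (log2 -1.47, SE 0.19). Homer1 was lower than at P7 by a small step (log2 -0.69, SE 0.21, adjusted p = 0.0204 by edgeR) and the groups overlapped, since MB replicate 1 held 64.0 CPM and P7 replicate 3 held 62.4. That call was lost without 4 of the 6 libraries, each left out in turn, with adjusted p up to 0.0882. Homer3 was called in neither comparison. Its reads in the gene table were 42.6% of those in its transcript's table, so its absolute level is uncertain.

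The SAPAP genes divided. Dlgap1 was lower than at P14 (76.8, 62.4 and 49.0 CPM in the tumours against 176, 143 and 153, log2 -1.33) but was not called against P7. Dlgap2 was lower than at P7, on few reads: the tumours held 17, 7 and 16 counts and P7 held 42, 55 and 80 (log2 -2.01, SE 0.57). That call was lost without P7 replicate 3 or MB replicate 2 (adjusted p up to 0.0643). Dlgap3 was at 438 and 430 CPM in MB replicates 2 and 3 but at 122 CPM in MB replicate 1, against 203, 137 and 269 CPM at P7. It was not called (log2 0.70, SE 0.36, adjusted p = 0.148 by edgeR), and without MB replicate 1 it was called higher (log2 1.10, adjusted p = 0.00186). Dlgap4 was called in neither comparison.

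Gephyrin was nearly constant. It held 97.9, 85.0 and 77.9 CPM in the tumours, and 67.1 to 117 CPM across the 12 precursor libraries. No comparison called it. Camk2g, which encodes the gamma subunit of CaMKII, was likewise called in none, with all libraries between 68.3 and 103 CPM. A missed threshold does not show that these 2 genes were equal between groups.

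Camk2a, which encodes the alpha subunit of CaMKII, had the largest difference of the 40 genes between tumours and P7. It was at 0.238, 0.195 and 0.0801 CPM in the tumours, from 6, 8 and 2 counts. At P7 it was at 15.9, 4.39 and 9.21 CPM, and the lowest of the 12 precursor libraries held 2.38 CPM. The groups did not overlap, with a 55.1-fold lower mean (log2 -5.78, SE 0.56, adjusted p = 1.79e-06 by edgeR). A count of 3 over the tumour group is the limit of detection taken here, and the tumours held 16 counts in all. The P7 libraries differed among themselves in the same order as a sum of 10 Purkinje cell markers, which was at 1190, 558 and 858 CPM. The Purkinje marker Calb1 was at 77.1 to 273 CPM at P7 and at 0.159 to 0.244 CPM in the tumours, and Skor2 was at 0 in all 3 tumours. The sum of the 10 was 430 to 538 CPM in the tumours, and none of the other 9 was at 0 in the group. Foxp2, also on this list, went the other way, at 123, 68.0 and 56.3 CPM in the tumours against 20.5, 14.9 and 17.7 CPM at P7. The part of Purkinje cells in the Camk2a difference was not tested.

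The other lower kinases were far more abundant. Camk4, a nuclear kinase abundant in granule neurons, was at 50.9, 17.2 and 32.4 CPM in the tumours. It was at 154, 142 and 122 CPM at P7 and at 310, 241 and 248 CPM at P14. The tumours lay below both ages, by 4.17-fold (log2 -2.06, SE 0.46) and 7.97-fold (SE of the log2 value 0.47). Camk2d, the delta subunit, was at 81.2, 30.6 and 40.7 CPM against 168, 170 and 184 CPM at P7 and 253, 241 and 239 CPM at P14, lower by 3.43-fold and 4.81-fold. Camk2b, the beta subunit, was lower than at P14 (73.3, 27.7 and 68.5 CPM against 259, 211 and 230, log2 -2.05, SE 0.44). Against P7 it fell just outside the threshold (log2 -1.14, adjusted p = 0.0509 by edgeR), although the groups did not overlap. MB replicate 1 was the highest tumour for Camk2b, Camk2d and Camk4.

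**Figure D2:**
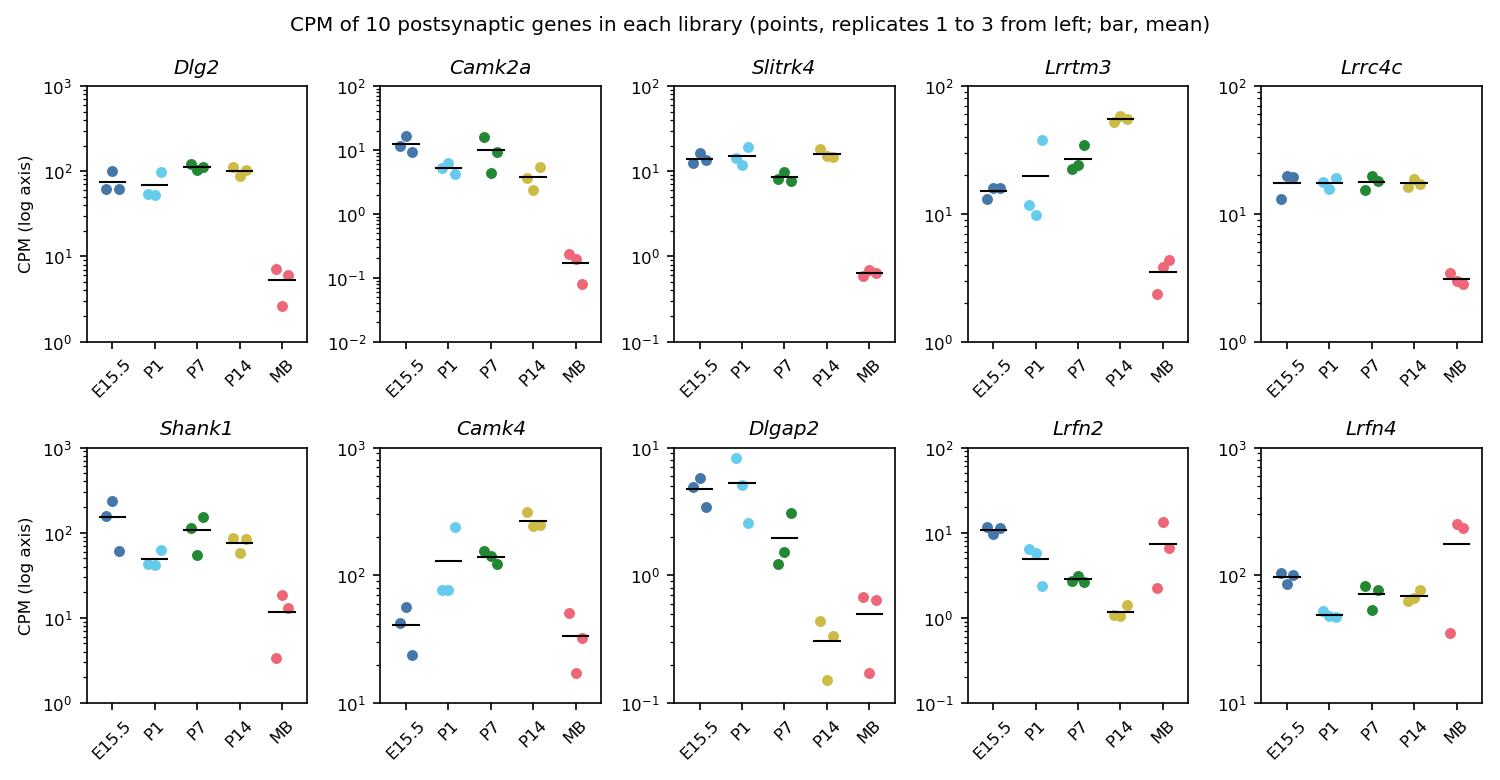
CPM of 10 genes on log axes, by group (E15.5, P1, P7, P14 and MB); each point is 1 library in replicate order from the left and the bar is the mean of 3. For Dlg2, Camk2a, Slitrk4, Lrrtm3, Lrrc4c and Shank1 the 3 tumours lie below every precursor library, and for Lrfn2 and Lrfn4 MB replicate 1 lies apart from the other tumours.

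Neuroligins, the neurexin receptors present at both excitatory and inhibitory synapses, were not called in either comparison. Nlgn2, the neuroligin of inhibitory synapses, was at 122 CPM in MB replicate 1 and 310 and 335 CPM in the other tumours, against 274, 181 and 356 CPM at P7, and it was not called without MB replicate 1 either (log2 0.25, adjusted p = 0.545 by edgeR). Nlgn1 ranged from 18.4 to 37.9 CPM over all 15 libraries. Nlgn3 was at 27.6, 67.0 and 78.7 CPM in the tumours against 80.8, 57.5 and 136 CPM at P7. Every tumour was below the P14 libraries of Nlgn3 (123, 88.1 and 97.1 CPM), just outside the threshold (log2 -0.83, SE 0.35, adjusted p = 0.06 by edgeR).

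In contrast to the neuroligins, all 4 LRRTM genes, which encode the other neurexin-binding family of the list, were lower than at both ages. Lrrtm3 moved furthest: it was at 2.34, 3.84 and 4.36 CPM in the tumours, 22.4, 24.0 and 34.4 CPM at P7 and 52.1, 58.5 and 54.9 CPM at P14. This was 7.65-fold below P7 (log2 -2.94, SE 0.43) and 15.7-fold below P14. Lrrtm2 was at 37.0, 24.6 and 23.2 CPM against 60.9, 88.3 and 51.2 CPM at P7, 2.36-fold lower. Lrrtm1 and Lrrtm4 were low at P7, at 4.47 to 9.21 CPM and 5.11 to 6.28 CPM. Both were lower still in the tumours, at 0.357 to 3.12 CPM and 0.793 to 2.88 CPM. The call for Lrrtm1 against P7 was lost without P7 replicate 3 (adjusted p = 0.0612 by edgeR). Whether LRRTM genes differed more than neuroligins was not tested.

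The netrin-G ligand Lrrc4c (mm9 chr2:96158326-97471823, plus strand) was the most even of the lower genes. It was at 15.3, 19.6 and 18.1 CPM at P7, and at 13.1 to 19.9 CPM across all 12 precursor libraries. In the tumours it was at 3.41, 3.00 and 2.80 CPM. All 3 tumours were thus far below all precursors, by 5.75-fold relative to P7 (log2 -2.52, SE 0.22, adjusted p = 6.56e-07 by edgeR). Lrrc4 was 2.32-fold lower than at P7 (13.1, 21.0 and 17.9 CPM against 36.2, 43.8 and 40.7). Lrrc4b was not called: it was at 45.6 CPM in MB replicate 1 and at 205 and 207 CPM in the other tumours, against 143, 91.5 and 140 CPM at P7. Its log2 fold change was 0.29 with all libraries and 0.72 without MB replicate 1, where it was called higher (adjusted p = 0.0126 by edgeR).

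Slitrk proteins are leucine-rich transmembrane inducers of presynaptic differentiation. Slitrk4 had the smallest adjusted p of the 40 genes in both comparisons. The gene lies at chrX:61518060-61530171 on the minus strand (mm9). Its tumours held 0.595, 0.684 and 0.640 CPM, from 15, 28 and 16 counts. P7 held 8.07, 9.74 and 7.67 CPM and P14 held 18.4, 15 and 14.7 CPM. The tumours differed little among themselves and were 13.1-fold below P7 (log2 -3.72, SE 0.26) and 24.8-fold below P14. Slitrk2 was at 6.78, 6.40 and 5.48 CPM against 26.7, 29.1 and 16.9 CPM at P7 (3.90-fold lower). Slitrk3 was at 2.94, 4.18 and 4.56 CPM against 17.9, 18.3 and 14.3 CPM (4.32-fold lower). Slitrk5 went the other way against P14, at 51.6, 102 and 111 CPM against 44.6, 39.7 and 44.5 CPM (log2 1.04, SE 0.24), and was not called against P7. Slitrk1 was called in neither comparison.

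The Lrfn family held both of the genes that were higher than at P7. Lrfn4 was at 35.6, 254 and 235 CPM in the tumours and at 82.9, 53.9 and 76.5 CPM at P7. The tumours lay on both sides of P7: MB replicate 1 was below all 3 P7 libraries and the other tumours were above them. The log2 fold change was 1.30 (SE 0.45, adjusted p = 0.0357 by edgeR), and the call was lost without 5 of the 6 libraries (adjusted p up to 0.159). Without MB replicate 1 it was 1.78 (adjusted p = 3.93e-06). Lrfn2 was at 2.26, 13.2 and 6.68 CPM in the tumours and 2.72, 3.12 and 2.62 CPM at P7, with MB replicate 1 again below P7 (log2 1.39, SE 0.48), and its call was lost without 4 of the 6 libraries (adjusted p up to 0.283). Without MB replicate 1 Lrfn2 was at 1.82 (adjusted p = 0.00129). Against P14 Lrfn2 was higher in every tumour (1.08, 1.05 and 1.40 CPM at P14, log2 2.65, SE 0.51). Lrfn4 was also called against P14 (log2 1.34), and that call was lost without 4 of the 6 libraries (adjusted p up to 0.106), while without MB replicate 1 it was 1.83. Lrfn1 was lower than at both ages, although MB replicate 3 at 33.0 CPM overlapped P7 replicate 2 at 30.5 CPM, and its call against P7 was lost without P7 replicate 1 or 3 (adjusted p up to 0.0946). Lrfn5 was lower than at P7 only (2.58, 4.62 and 5.28 CPM against 9.06, 7.31 and 10.9), and Lrfn3 was called in neither comparison.

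**Figure D3:**
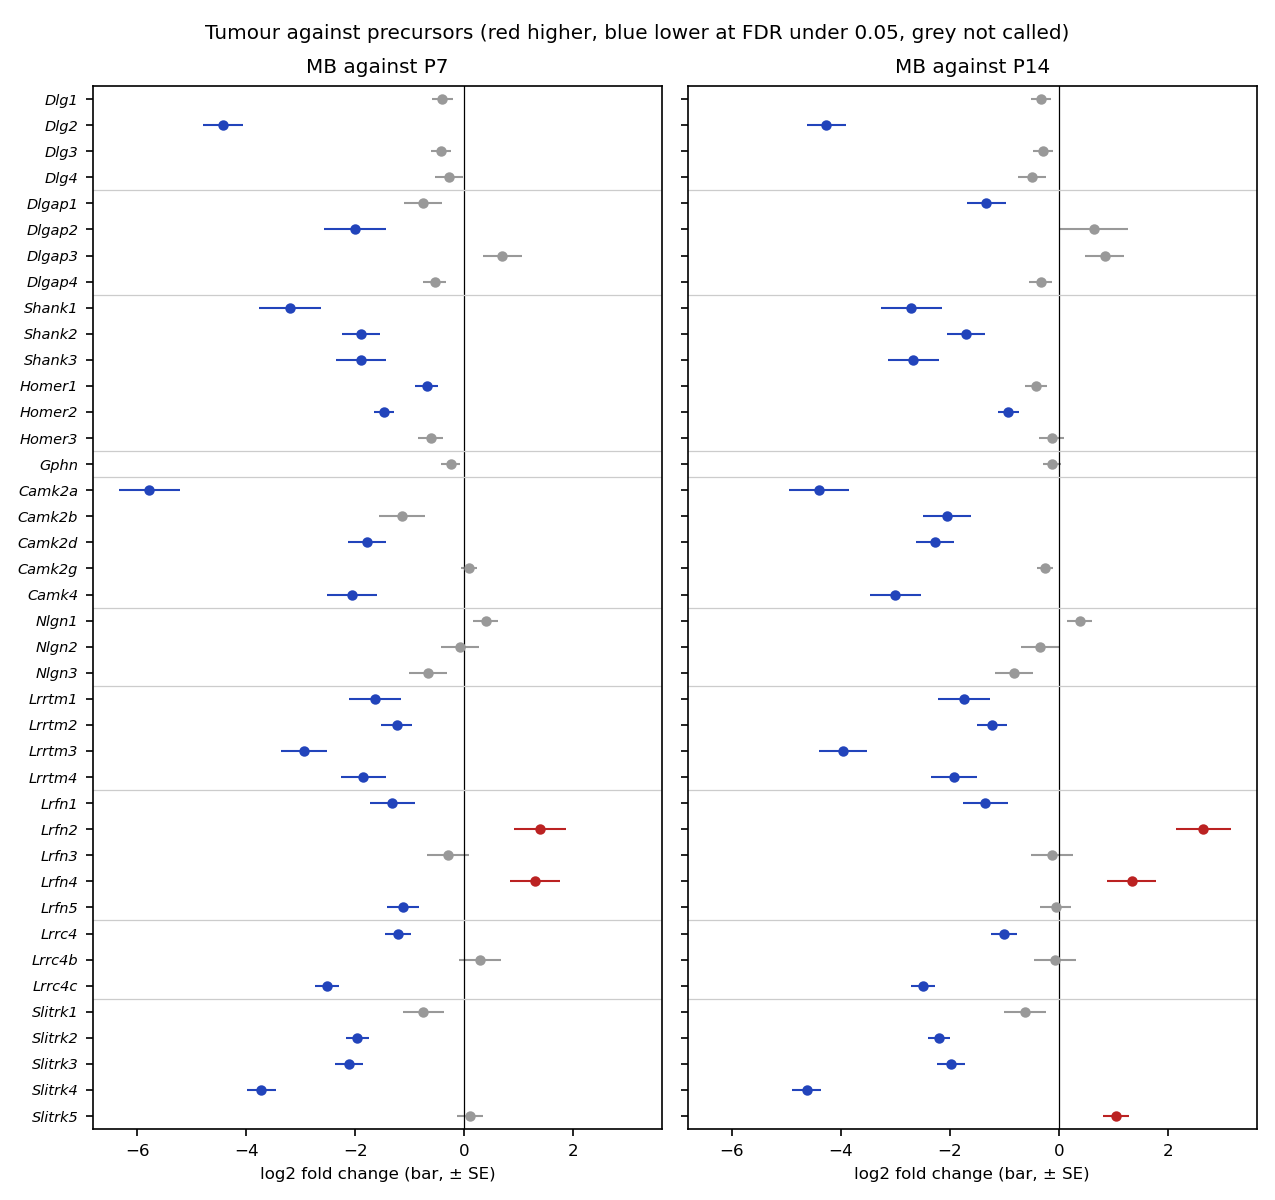
Log2 fold change of tumours against P7 (left) and against P14 (right) for the 40 genes, with bars of ± SE; blue genes were called lower, red genes higher and grey genes were not called. Camk2a, Dlg2 and Slitrk4 lie furthest to the left against P7 (-5.78, -4.42 and -3.72), and Lrfn2 and Lrfn4 lie to the right in both panels.

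Promoter sequence is shown for 4 members, since the first 3 were lower in every tumour than in every P7 library and the last was higher in 2 of 3 tumours. Each is the 250 bases upstream of a RefSeq transcription start, 5′ to 3′ on the gene's strand. Capitals mark the E-box CAGATG (a motif bound by Atoh1 and Neurod factors), the E-box CAGCTG or the GC box GGGCGG, read on both strands, so that CATCTG and CCGCCC are the same motifs on the other strand.
Lrrtm3 (GRCm38.p6, chr10:64090256-64090505, minus strand): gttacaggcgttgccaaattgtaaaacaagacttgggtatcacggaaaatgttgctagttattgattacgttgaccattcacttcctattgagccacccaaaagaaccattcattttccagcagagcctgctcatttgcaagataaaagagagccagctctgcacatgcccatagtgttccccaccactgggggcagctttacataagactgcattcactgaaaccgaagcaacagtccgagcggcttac
Lrrc4c (GRCm38.p6, chr2:96317919-96318168, plus strand): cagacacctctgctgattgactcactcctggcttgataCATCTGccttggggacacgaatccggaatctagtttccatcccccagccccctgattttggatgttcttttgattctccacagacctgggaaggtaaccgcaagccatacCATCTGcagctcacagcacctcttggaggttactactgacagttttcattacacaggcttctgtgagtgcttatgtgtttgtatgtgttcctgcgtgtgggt
Camk2d (GRCm38.p6, chr3:126596701-126596950, plus strand): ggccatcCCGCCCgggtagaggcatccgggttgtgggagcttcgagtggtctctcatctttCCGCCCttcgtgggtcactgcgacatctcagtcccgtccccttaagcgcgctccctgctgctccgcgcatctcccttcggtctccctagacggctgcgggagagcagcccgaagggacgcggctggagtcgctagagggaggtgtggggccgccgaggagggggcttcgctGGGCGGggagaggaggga
Lrfn4 (GRCm38.p6, chr19:4615668-4615917, minus strand): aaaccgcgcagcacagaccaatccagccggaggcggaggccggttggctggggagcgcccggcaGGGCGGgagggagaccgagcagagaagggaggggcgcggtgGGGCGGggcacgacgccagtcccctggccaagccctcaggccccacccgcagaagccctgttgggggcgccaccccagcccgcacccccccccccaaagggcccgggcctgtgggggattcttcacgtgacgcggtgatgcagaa

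The 3 lower genes did not share a promoter type. Camk2d and Lrfn4 had CpG-rich upstream sequence, with 23 and 21 CpG dinucleotides, against a median of 6 over all windows. Lrrtm3 and Lrrc4c had 6 and 4. Lrrc4c held 2 copies of CAGATG, Camk2d held 3 GC boxes and Lrfn4 held 2, and Lrrtm3 held none of these motifs. Windows were found for 29 of the 40 genes (43 windows). CAGCTG was in 18.6% of the member windows and in 13% of all 32851 windows, CAGATG in 9.3% and 14.4%, and GGGCGG in 34.9% and 32.7%. These are matches of letters in a short window and are a description only.

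The step from E15.5 to P1 asks how the precursors change around birth. In it 12 of the 40 genes were lower and 4 were higher, with 20.9% and 25.4% of all genes tested called lower and higher. Dlg4, Dlgap4 and Homer2 had the smallest adjusted p among them. Dlgap4 was at 337, 343 and 301 CPM at E15.5 and at 102, 99.2 and 136 CPM at P1, 2.91-fold lower (log2 -1.54, SE 0.22, adjusted p = 5.74e-05 by edgeR). Dlg4 was at 258, 269 and 270 CPM at E15.5 and at 108, 94.2 and 137 CPM at P1, 2.35-fold lower. For both genes every P1, P7 and P14 library was below every E15.5 library. Homer2 went the other way, from 57.0, 72.9 and 54.0 CPM to 172, 118 and 139 CPM (2.33-fold higher, log2 1.22, SE 0.19).

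The adhesion genes that were lower at P1 were Lrrtm1, Lrfn3, Lrrc4, Slitrk1, Slitrk3 and Slitrk5, with log2 values from -1.17 to -0.74. Lrrc4 was at 47.0, 53.7 and 29.5 CPM at E15.5 and 21.3, 17.7 and 27.1 CPM at P1, and kept its call without each of the 6 libraries in turn. Slitrk5 held 146, 143 and 103 CPM at E15.5 and 84.7, 75.0 and 62.8 CPM at P1, and its adjusted p was 0.0529 without P1 replicate 3. Slitrk2 was the adhesion gene that was higher, at 37.4, 35.0 and 35.8 CPM against 18.8, 23.1 and 17.7 CPM (log2 0.86, SE 0.21). The calls of Lrrtm1, Lrfn3, Slitrk1 and Slitrk3 were each lost without at least 4 of the 6 libraries left out in turn (adjusted p up to 0.131).

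Of the remaining scaffolds and kinases, Dlg3, Shank1, Homer3 and Camk2a were lower at P1. Shank1 varied widely at E15.5, at 158, 236 and 61.2 CPM against 42.4, 41.2 and 62.1 CPM at P1, so that the groups overlapped, and its call was lost without E15.5 replicate 2, P1 replicate 1 or P1 replicate 2 (adjusted p up to 0.0975). The call of Dlg3 was lost without 4 of the 6 libraries (adjusted p up to 0.0847), and that of Camk2a without 3 (up to 0.0919). Camk2d and Camk4 were higher at P1. Camk4 was at 42.2, 56.5 and 23.7 CPM at E15.5, at 76.0 and 76.1 CPM in P1 replicates 1 and 2 and at 239 CPM in P1 replicate 3. Without P1 replicate 3 the log2 fold change of Camk4 was 0.91 in place of 1.68 and its adjusted p was 0.0655 by edgeR. Camk2d, at 107, 94.6 and 203 CPM at P1, had an adjusted p of up to 0.0788, without P1 replicate 3 or E15.5 replicate 3.

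Beside this step, a sum of 10 astroglial markers was at 360 to 523 CPM at E15.5 and 3040 to 4620 CPM at P1. A sum of 10 markers of GABAergic interneurons and Golgi cells was at 967 to 1140 CPM at E15.5 and 489 to 595 CPM at P1. None of these 20 markers was at 0 in a whole group. The endothelial sum was at 13.4 to 35.1 CPM at E15.5 and 406 to 613 CPM at P1. The pericyte and fibroblast sum was at 22.7 to 37.2 and 687 to 1000 CPM. The oligodendrocyte sum was at 91.5 to 114 and 606 to 2220 CPM, and the choroid plexus sum at 59.2 to 324 and 390 to 11200 CPM. Lower at P1 were the Purkinje sum (573 to 864 and 410 to 552 CPM) and the unipolar brush and nuclear cell sum (266 to 446 and 155 to 244 CPM). Their part in the results was not tested.

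The interval from P1 to P14 covers the differentiation of precursors into granule neurons. Few genes of any kind were called: 1 of the 40 was higher and 3 were lower, beside 3.63% and 5.31% of all genes tested. The median of the 40 was 0.46, against 0.01 for all genes, and 28 of the 40 estimates lay above 0. Markers of other cells moved over the same interval: the oligodendrocyte sum was at 606, 802 and 2220 CPM at P1 and 3400 to 3670 CPM at P14, and the endothelial sum at 406 to 613 and 756 to 784 CPM. A sum of 6 choroid plexus markers was at 390, 11200 and 5080 CPM at P1 and 6650 to 10700 CPM at P14. Their part in the results was not tested. The called rise was that of Lrrtm3, at 11.8, 9.77 and 37.5 CPM at P1 and 52.1, 58.5 and 54.9 CPM at P14 (2.80-fold, log2 1.48, SE 0.40, adjusted p = 0.0343 by edgeR). The P1 and P14 libraries did not overlap, and P1 replicate 3 was nearest to P14. The call of Lrrtm3 was lost without any 1 of the other 5 libraries (adjusted p up to 0.183), and without P1 replicate 3 it was log2 2.35 with an adjusted p of 0.000154.

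Without P1 replicate 3, 8 of the 40 genes were called higher at P14 than at P1 and 4 lower, while the shares of all genes tested called in that fit also rose, to 9.54% higher and 7.96% lower. The added higher genes were Dlg3, Dlgap1, Shank3, Camk2b, Camk2d, Camk4 and Lrrc4. P1 replicate 3 was set apart for its markers of later cells, so its omission is not an independent test of these rises. Without any other P1 or P14 library, none of Dlgap1, Shank3, Camk2b, Camk2d and Camk4 was called. In those fits 2 or 3 of the calls made with all libraries were lost, and 0.0129% to 0.297% of all genes were higher. Camk2b was at 46.5, 51.6 and 172 CPM at P1 and at 259, 211 and 230 CPM at P14. Its log2 fold change was 1.38 with an adjusted p of 0.0572 by edgeR with all libraries, and 2.25 with an adjusted p of 0.000658 without P1 replicate 3. Camk4, at 310, 241 and 248 CPM at P14, was at log2 1.03 with all libraries and at 1.81 without that library (adjusted p = 0.00654). Shank3 was at 43.6, 62.8 and 127 CPM at P1 and 195, 163 and 192 CPM at P14, and its log2 fold change was 1.24 (adjusted p = 0.0898) and 1.79 (adjusted p = 0.0175) in these fits. P1 replicate 3 was the highest P1 library for 30 of the 40 genes and the lowest for 7.

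Genes lower at P14 than at P1 were Dlgap2, Lrfn2 and Lrfn5. Dlgap2 was at 8.24, 5.08 and 2.56 CPM at P1, 1.23, 1.52 and 3.08 CPM at P7 and 0.438, 0.151 and 0.334 CPM at P14. Its mean was 17.1-fold lower at P14 than at P1 (log2 -4.10, SE 0.60, adjusted p = 0.00174 by edgeR), and the call held without each of the 6 libraries in turn. P14 held 13, 5 and 10 counts of it. Lrfn5 was at 15.4, 13.8 and 11.2 CPM at P1, 9.06, 7.31 and 10.9 CPM at P7 and 4.15, 3.80 and 5.08 CPM at P14 (3.10-fold lower than P1). Its adjusted p was 0.0552 without P14 replicate 2. Lrfn2 was at 6.48, 5.70 and 2.37 CPM at P1 and 1.08, 1.05 and 1.40 CPM at P14 (log2 -2.04, SE 0.50), and its call was lost without 5 of the 6 libraries (adjusted p up to 0.132).

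**Figure D4:**
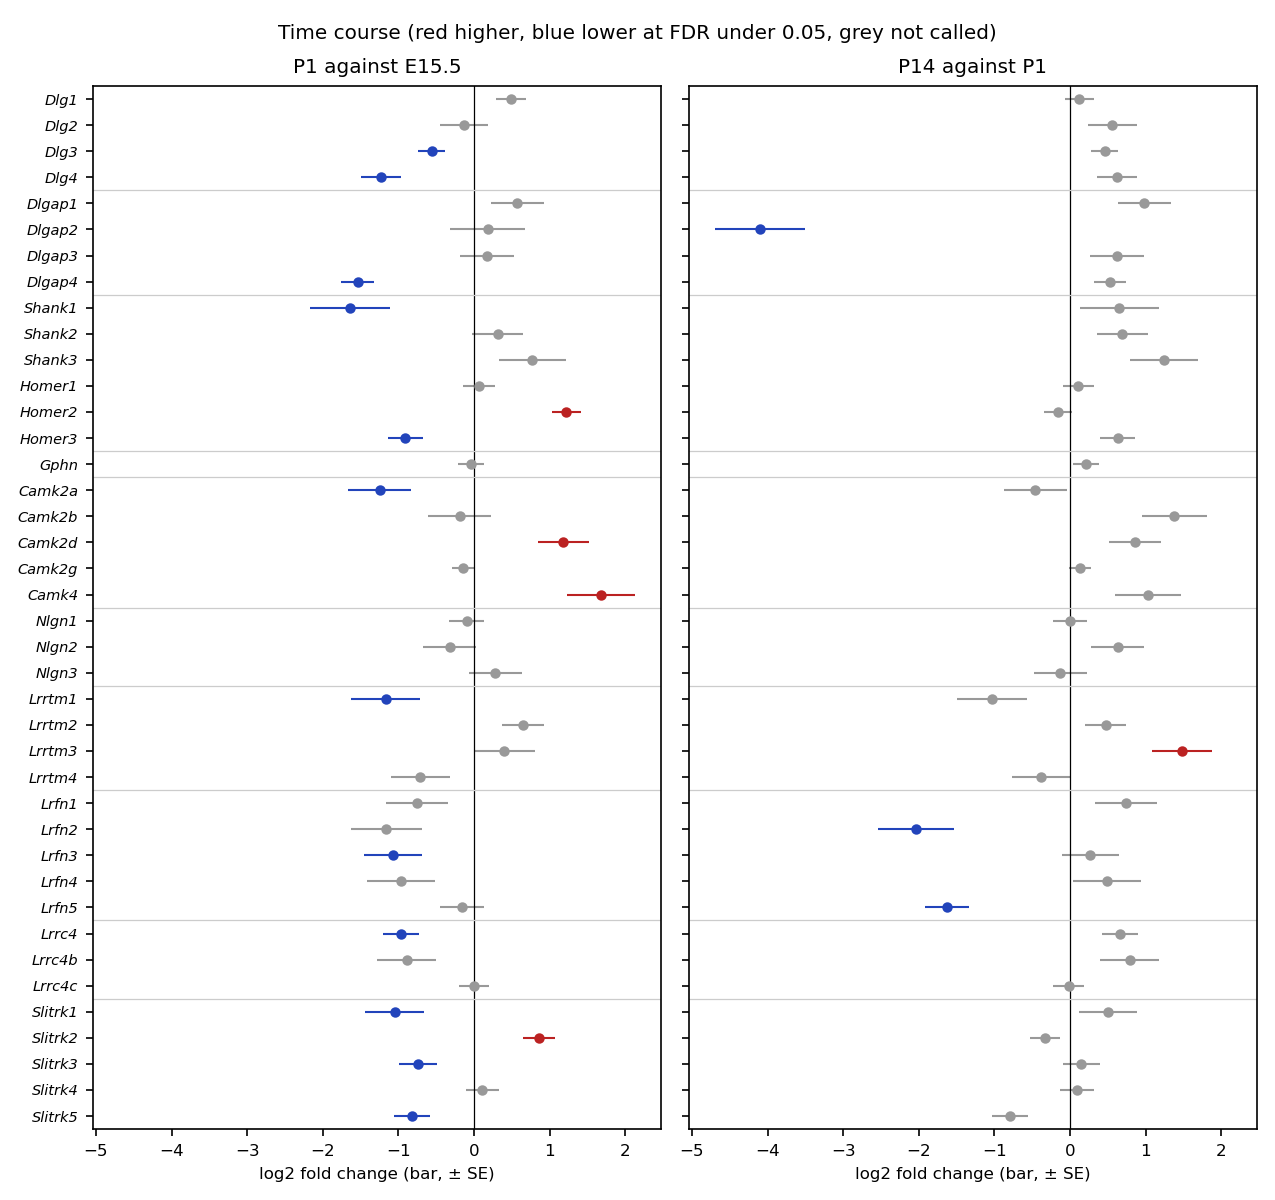
Log2 fold change of P1 against E15.5 (left) and of P14 against P1 (right) for the 40 genes, with bars of ± SE; colours as the calls (red higher, blue lower, grey not called). Dlg4 and Dlgap4 lie left of 0 in the left panel (-1.23 and -1.54), and Dlgap2 lies furthest left in the right panel (-4.10).

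The single steps within this interval called few genes. From P1 to P7, Homer3, a Homer protein prominent in Purkinje cells, was higher: it was at 23.0, 21.7 and 23.6 CPM at P1 and 58.8, 38.4 and 50.7 CPM at P7 (log2 1.11, SE 0.23, adjusted p = 0.0233 by edgeR), where 1.4% of all genes were called higher. The Purkinje marker sum was at 1190, 558 and 858 CPM in the P7 libraries and at 410, 552 and 547 CPM in the P1 libraries. Single markers of this sum did not move together. Calb1 was at 48.8, 99.4 and 88.8 CPM at P1 and 273, 77.1 and 115 CPM at P7. Foxp2 was at 37.5, 50.7 and 29.7 CPM at P1 and 20.5, 14.9 and 17.7 CPM at P7. The part of Purkinje cells in this difference was not tested. The call of Homer3 was lost without P1 replicate 1 or 2 or any 1 of the P7 libraries (adjusted p up to 0.139). Without P1 replicate 3, 6 of the 40 genes were higher, Dlg3, Dlgap4, Camk2b, Lrrtm3 and Lrrc4 beside Homer3, where 3.12% of all genes were. No gene of the 40 was lower by edgeR at this step, where 1.74% of all genes were, while DESeq2 called 1 lower, beside 4.59%. At an unadjusted p below 0.05 by edgeR, 8 of the 40 were higher and 4 lower, and the share of all genes is not given. The median log2 fold change of the 40 was 0.39, against -0.01 for all genes, and 30 estimates lay above 0.

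From P7 to P14, Slitrk4 was higher (8.07, 9.74 and 7.67 CPM to 18.4, 15 and 14.7 CPM, log2 0.92, SE 0.22), and Dlgap2, Lrfn5 and Slitrk5 were lower. Of all genes tested 5.81% were called higher and 4.51% lower. Slitrk5 went from 71.7, 93.5 and 80.6 CPM to 44.6, 39.7 and 44.5 CPM (log2 -0.93, SE 0.24). None of these 4 groups overlapped, yet each call was lost without at least 3 of the 6 libraries left out in turn (adjusted p up to 0.143). Slitrk4 and Lrfn5 lost theirs without any 1 library. A test for any difference among the 4 ages called 23 of the 40 genes, where 55.7% of all genes were called. Lrrc4c and Nlgn1 were among the 17 not called (adjusted p = 0.999 and 0.947 by edgeR).

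A second list of 72 other postsynaptic genes gave the surroundings of these results, and 71 of them were in the table and tested. In the tumours 34 were lower and 9 higher than at P7 (median log2 -0.74), and 35 lower and 12 higher than at P14 (median -0.66), beside 20.7%, 13.7%, 27.2% and 22.9% of all genes in that order. Grip2, a PDZ protein that binds AMPA receptors, had the largest fall among the genes averaging 5 CPM or more, from a mean of 6.64 CPM at P7 to 0.129 CPM (log2 -5.62, SE 0.32). Iqsec3, an exchange factor of inhibitory synapses, fell from 10.1 to 0.269 CPM (log2 -5.25, SE 0.44). Ntng2, which encodes netrin-G2, a partner of the Lrrc4 family, was higher in the tumours, at 75.3 against 8.78 CPM (log2 3.10, SE 0.33), and so was the PSD-95-binding protein gene Begain, at 36.4 against 8.83 CPM (log2 2.04, SE 0.39). Thus the list held genes of both directions, as the 40 members did.

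From E15.5 to P1, 25 of the 71 were lower and 9 higher, beside 20.9% and 25.4% of all genes tested. Nrgn, which encodes the calmodulin-binding protein neurogranin, went from 21.8 to 1.69 CPM (log2 -3.69, SE 0.41), and the calsyntenin gene Clstn2 from 59.5 to 10.3 CPM. Il1rap, an adhesion partner of receptor tyrosine phosphatases, rose from 2.64 to 27.9 CPM (log2 3.39, SE 0.32), and the neuronal nitric oxide synthase gene Nos1 from 4.02 to 31.7 CPM. Nos1 was at 9.70 and 16.1 CPM in P1 replicates 1 and 2 and at 69.4 CPM in P1 replicate 3. From P1 to P14, 6 of the 71 were higher and 4 lower, beside 3.63% and 5.31% of all genes. The MAGUK gene Mpp3 rose from 68.1 to 164 CPM and the adhesion gene Cadm3 from 372 to 876 CPM. P1 replicate 3 was the highest P1 library for both. Mpp3 was at 48.3, 45.7 and 110 CPM at P1, and Cadm3 at 258, 242 and 615 CPM. Flrt2 fell from 70.6 to 37.7 CPM. The other lower genes, Il1rapl2, Slitrk6 and Camk1g, averaged under 5 CPM and were named after their values were seen. From P7 to P14, 2 were higher and 6 lower, beside 5.81% and 4.51% of all genes: Lgi1 rose from 5.91 to 21.5 CPM and Camkk2, the kinase that activates Camk4, from 27.4 to 66 CPM, while Grip1 fell from 52.2 to 23.2 CPM and Camkv from 12.3 to 6.53 CPM. From P1 to P7, where 1.4% of all genes were higher and 1.74% lower, 1 was higher, Cadm4 (89.4 to 184 CPM), and 1 was lower, Slitrk6 (7.24 to 2.68 CPM).

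Markers of other cells and of granule maturation also differed between tumours and P7. Neurod2, a factor of postmitotic granule neurons, was at 2.50, 2.44 and 11.7 CPM in the tumours and at 264, 211 and 374 CPM at P7. Other genes of the same granule-lineage list did not all follow it. Gabra6 lay below P7, at 1.11, 0.220 and 0.440 CPM against 10.3, 9.49 and 2.54 CPM. Cbln3 overlapped P7, at 11.5, 3.25 and 3.48 CPM against 15.1, 11.6 and 9.01 CPM. Etv1 also overlapped, at 15.8, 21.3 and 33.0 CPM against 19.8, 20.5 and 12.9 CPM. Atoh1, the factor of dividing precursors, was at 322, 282 and 236 CPM in the tumours and at 23.6, 39.1 and 29.2 CPM at P7. A sum of 16 granule-lineage markers was at 3740 to 5320 CPM and 7560 to 7740 CPM, respectively. The interneuron and Golgi marker sum was at 128 to 197 CPM in the tumours and 459 to 612 CPM at P7, and Gad1 was at 0.961 to 2.26 CPM against 76.6 to 96.5 CPM. The oligodendrocyte sum was at 660 to 962 CPM in the tumours, 862 to 1650 CPM at P7 and 3400 to 3670 CPM at P14. The sum of 10 microglia and macrophage markers went the other way, at 507, 221 and 188 CPM in the tumours against 161, 113 and 61.8 CPM at P7. The endothelial sum of 7 markers was at 19.3 to 35.4 CPM in the tumours and 304 to 363 CPM at P7. The pericyte and fibroblast sum was at 23.1 to 28.0 and 379 to 635 CPM, and the astroglial sum at 1750 to 2180 and 2440 to 4760 CPM. Overlapping P7 were the choroid plexus sum (58.8 to 274 and 134 to 2340 CPM) and the unipolar brush and nuclear cell sum (56.6 to 166 and 163 to 271 CPM). The part of these cells and of maturation in the lower postsynaptic levels was not tested.

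MB replicate 1 was the lowest tumour for 23 of the 40 genes and the highest for 16. The 23 had a median transcript GC content of 57.1% and the 16 one of 47.0%. Across the 40 genes, the log2 difference of MB replicate 1 from the other tumours fell with GC content (r = -0.53, a description over genes that share libraries). Dlgap3, Lrfn4 and Lrrc4b, 3 of the most GC-rich genes, were among those lowest in it. With GC corrected in each library, Lrfn2 and Lrfn4 kept their calls against P7 and P14, and Dlgap3 was called higher than at P7 (log2 0.82, adjusted p = 0.00105 by edgeR). P7 replicate 2 was the lowest P7 library for 20 genes, with a median GC content of 58.7%, and the highest for 12, with 45.5%.

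**Figure D5:**
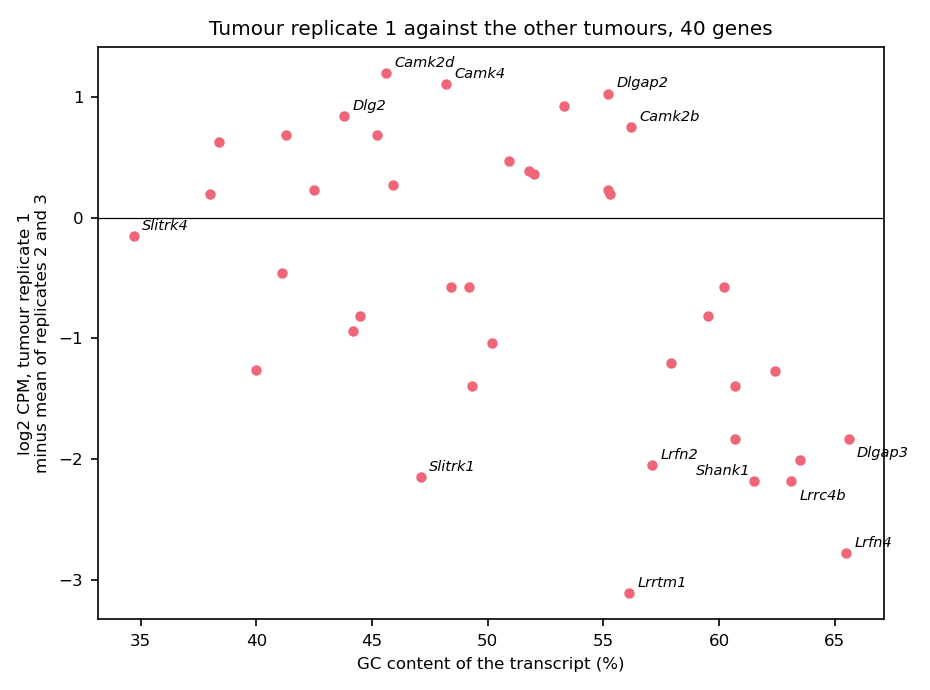
Log2 CPM of MB replicate 1 minus the mean of MB replicates 2 and 3 for each of the 40 genes (vertical), against the GC content of the gene's transcript in percent (horizontal). GC-rich genes such as Lrfn4, Dlgap3 and Lrrc4b lie below 0, and Camk2d, Camk4 and Dlg2 lie above it.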

How the data were processed

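RNA of the 15 libraries was counted by the authors: the deposited tables hold raw read counts per gene and per transcript, not normalized. Per the submitters' processing notes Trimmomatic, TopHat, StringTie and HTSeq were used with mm9. Versions and strand settings are not given in the sources used here, so overlapping genes cannot be told apart. Transcription-start tables were not used. Each gene of the 5 groups was fitted on its counts with edgeR 4.0.16 in R 4.3.3 (TMM scaling, filterByExpr with a minimum count of 10 and total of 15, 15259 genes, 10 residual degrees of freedom), and Benjamini-Hochberg adjusted p-values were called below 0.05. SE is the log2 fold change divided by the square root of F. The members and lists were chosen with earlier results of these data known. The named genes were the 40 members, the 2 called genes with the largest rise and fall per comparison of the other postsynaptic list among those with a mean of at least 5 CPM, and the most abundant or defining markers. Alternatives were DESeq2 1.42.0, RLE factors, no filter, only the 2 groups compared, a replicate block, the transcript table, leaving out each library, the counting set below and, chosen after seeing the data, a correction for GC content. Gene counting differed between 6 libraries (MB replicate 1, all of P7, and E15.5 replicates 1 and 3) and the other 9: at Tsnax, the 6 gene tables gave 0 to 0.273% of the transcript table's reads. No member's ratio of gene to transcript counts separated the 2 sets. Promoters came from RefSeq on GRCm38.p6, and no GRCm38 coordinate was joined to mm9 data. One gene of the oligodendrocyte marker list is not reported here and is left out of its sum.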

Additional observations from a re-analysis of the deposited data

How the results depend on the processing

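Over all alternatives, 953 of the gene comparisons named kept their side of the threshold, 113 lost it, 18 gained it and 3 reversed. The reversals were within the low counting set, MB replicate 1 against P7: Lrfn2 -0.27, Lrfn4 -0.95 and Dlgap3 -0.69, and 0 members were called higher there, beside 10.2% of all genes. Of the 21 genes lower in tumours than at P7, 15 kept their call in every alternative, and 19 of the 20 against P14 did. Shares of all genes called in the same fit stand in brackets. With only the 2 groups compared, P14 against P7 gave 5 higher (15.2%) and 5 lower (10.7%), P14 against P1 gave 10 (12.9%) and 6 (14.6%), and tumours against P7 gave 0 higher (9.27%). Within the full counting set, P1 against E15.5 gave 2 higher (20.7%) with E15.5 replicate 2 alone in its group, P14 against P1 gave 14 higher (14%) and 6 lower (16.3%), and tumours against P14 gave 5 higher (30.8%). DESeq2 gave 3 higher (3.34%) and 1 lower (4.59%) for P7 against P1 and 3 higher (8.02%) for P14 against P1. The GC correction gave 3 higher (2.04%) for P7 against P1, 2 higher (2.51%) for P14 against P1 and 6 lower (6.55%) for P14 against P7. The replicate block gave 2 higher (3.89%) for P14 against P1 and 0 higher (12.1%) for tumours against P7. Deviations from the group's mean gave no sign that equal replicate numbers pair samples, but cannot exclude it. Their correlations ran from -0.239 to 0.332 for equal numbers and from -0.38 to 0.388 for unequal ones. The cause of the changes in calls was not tested. Leaving out 1 library at a time gave ranges of calls, with the range of shares over the same fits in brackets. P1 against E15.5 gave 2 to 5 higher (20.8% to 23.8%) and 5 to 11 lower (15.4% to 20.7%). P7 against P1 gave 0 to 6 higher (0.00646% to 3.12%), with 6 and 3.12% without P1 replicate 3. P14 against P7 gave 0 higher in each fit (0.556% to 3.28%) and 0 to 2 lower (0.233% to 3.68%). P14 against P1 gave 0 to 8 higher (0.0129% to 9.54%) and 1 to 4 lower (0.939% to 7.96%). Tumours against P7 gave 0 to 4 higher (10.9% to 15.6%) and 19 to 24 lower (17.5% to 22.1%). Tumours against P14 gave 2 to 4 higher (17.8% to 22.5%) and 20 to 23 lower (24.0% to 27.9%). Each fit without 1 library leaves 1 group with 2 libraries, assumed to vary like the others. Few counts limit Camk2a (16 over the tumours) and Dlgap2 (7 to 17 per tumour).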
